A study of Mus musculus with 8 samples.

Results

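The nuclear genes of the mitochondrial respiratory chain and ATP synthase were followed through a knockdown of Rif1 in mouse embryonic stem cells. Members were all probe sets whose annotation gives 1 gene symbol beginning with Nduf, Sdha, Sdhb, Sdhc, Sdhd, Uqcr, Cox4i, Cox5, Cox6, Cox7, Cox8 or Atp5. The rule found 185 of the 45101 probe sets on the array, for 94 of 18194 genes. A further 10 probe sets with such a symbol beside others were left out. Of the members, 173 probe sets for 91 genes were bright enough to be tested, and the other 12 probe sets were not. Cox7b2, Cox8b and Ndufb4 were the 3 genes with no tested probe set.

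The chain moves electrons from NADH and succinate to oxygen in the inner mitochondrial membrane, pumping protons as it does so, and ATP synthase lets the protons back to make ATP. Complex I takes electrons from NADH, complex II from succinate, complex III passes them to cytochrome c, and complex IV passes them to oxygen. The large membrane cores of complexes I, III, IV and V are in part encoded by mitochondrial DNA, so the nuclear genes make the remaining subunits and the factors that assemble them. Embryonic stem cells are known to draw much of their ATP from glycolysis, with mitochondria that mature on differentiation.

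The RNA of 4 groups was hybridised to 8 Affymetrix mouse 430 2.0 arrays, 2 a group. J1 embryonic stem cells, of strain 129S4/SvJae, were transfected by lipofection with a control short hairpin RNA (shRNA) or with Rif1 shRNA, and collected 48 h later. F1 embryonic stem cells, of background C57BL/6xC3H, were taken at passage 16 with control shRNA or as a stable Rif1 knockdown. The labels of the F1 control arrays name control shRNA under transfection but the knockdown line under cell line, and how many F1 clones were used is not stated. All cells were grown on feeder plates, and the general treatment text speaks of virus or siRNA. Nothing states that the 2 arrays of a group came from separate cultures. Each p-value therefore reflects the spread of these arrays and no more, and that spread may be technical. The comparisons ask whether lowering Rif1 went with a change in the chain's genes, early in J1 and late in F1. Time, strain and delivery all differ between J1 and F1 and cannot be told apart.

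The median deposited signal of the arrays was 61.1 to 69.4. Rif1, whose protein acts at telomeres and replication origins, fell in both settings at 4 of 4 probe sets, to 47.2% of control in J1 and 29.9% in F1 at the brightest one. The summed signal of 8 embryonic stem cell markers, Pou5f1 and Nanog among them, lay between 43516 and 45253 in J1 and between 50043 and 52002 in F1. By gene, 0 of the 8 were called in J1 by limma (1 higher and 1 lower at an unadjusted p under 0.05), while in F1 Tdgf1 rose and 4 fell, by 0.54 on the log2 scale for Esrrb, 0.37 for Utf1, 0.28 for Zfp42 and 0.26 for Sox2, with a median of -0.15. The summed signal of 23 feeder fibroblast markers was 12670 to 13609 in J1 control and 11730 to 12005 in J1 Rif1 shRNA arrays. In J1, 5 of the 22 tested feeder markers fell, Acta2 by 1.88, Tagln by 1.01 and Col5a2 by 0.90 among them, and 0 rose by limma (1 higher at an unadjusted p under 0.05). In J1 3 of 8 primitive endoderm markers also fell and 0 rose (0 higher at an unadjusted p under 0.05 by limma), with a median of -0.46. In F1 the feeder sum was 16574 to 16745 in control and 33691 to 34984 in Rif1 shRNA arrays. There 18 of the 22 tested feeder markers rose and 0 fell by limma (0 fell at an unadjusted p under 0.05), with a median log2 fold change of 1.14. Lgals1 (7254 and 6540), S100a6 (6410 and 5592) and Fn1 (5111 and 5254) were the largest parts of the F1 Rif1 shRNA sum. Lgals1 also read 4577 and 3912 in J1 control, and Fn1, not called in F1, 1945 and 2288. Col1a1 read 213 and 167 and Dcn 264 and 228 on the F1 Rif1 shRNA arrays. The sum of 8 trophoblast markers was 2362 and 2551 in F1 control and 9574 and 10394 in F1 Rif1 shRNA arrays. Krt8 and Krt18 made up most of the latter, with 4208 and 4645 for Krt8 and 4161 and 4498 for Krt18. Of the 6 tested trophoblast markers, 4 rose in F1, Tfap2c fell by 0.85 and Cdx2 was not called (0.14, adjusted p = 0.508). Of the 8 primitive endoderm markers, Col4a1 rose in F1 by 0.90 and Col4a2 by 0.87, and Lama1 fell by 0.88. Of 4 neural markers, Nes rose in F1 by 0.37, and Sox1 fell by 0.95 and Pax6 by 0.67. None of the 3 tested mesoderm markers was called in F1 by limma (0 at an unadjusted p under 0.05). The 3′ to 5′ signal ratio of the actin control, a measure of RNA integrity, was 2.61 to 2.71 in J1 control arrays, 2.17 to 2.18 in J1 Rif1 shRNA arrays and 1.33 to 1.41 in F1. In bulk RNA, fewer cells of a type and less RNA per cell cannot be told apart.

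Each gene was described at its brightest tested probe set, as the log2 ratio of Rif1 shRNA to control after quantile normalization, with an offset of 18 that shrinks the change of dim genes. A gene rose or fell where limma's p, adjusted by Benjamini-Hochberg over all 31605 tested probe sets, was under 0.05. Errors given with a log2 fold change are standard errors of the fit. The median standard error of the 91 genes was 0.06, against 0.11 over all genes. With 2 arrays against 2, the deposited signals of control and Rif1 shRNA arrays did not overlap at 39.5% of all tested probe sets in J1 and 63.2% in F1, so separation of a gene's arrays is common here and is given as a description. Among the 173 member probe sets it was 35.3% in J1 and 71.1% in F1.

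In J1 cells, 48 h after transfection, the chain as a whole stayed close to control. Uqcrfs1 rose and was the only gene of the 91 past the threshold, and 0 fell (11 genes were higher and 8 lower at an unadjusted p under 0.05). Over all 14714 genes tested, 1.86% rose and 2.17% fell in J1. By probe set, 2 of 173 rose and 0 fell (21 higher and 9 lower at an unadjusted p under 0.05), where 1.44% of all tested probe sets rose and 1.74% fell. The median log2 fold change of the 91 genes was 0.05, against 0.01 over all genes, and 61 of 91 (67.0%) were above 0, against 51.3% of all genes. The higher actin 3′ to 5′ ratio of the J1 control arrays moved with this comparison, and its part in it was not tested. For 87 of the 91 genes the 95% confidence interval of the log2 fold change lay within 0.5 of 0, which held for 82.8% of all genes. Cox6b2 was the only member with an estimate beyond 0.5, and it did not pass the test.

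Uqcrfs1 encodes the Rieske iron-sulfur protein, the subunit of complex III that takes the electron from ubiquinol. Its deposited signal was 1446 and 1574 on the J1 control arrays and 2017 and 1988 on the J1 Rif1 shRNA arrays. The groups did not overlap, and the log2 fold change was 0.38 ± 0.05 (adjusted p = 0.00524), a 1.30-fold rise. The call was lost without the intensity trend in limma's prior (adjusted p = 0.0709). In F1 the signal was 3484 and 3583 in control and 3851 and 3786 in Rif1 shRNA arrays, a log2 fold change of 0.11 that did not pass (adjusted p = 0.219).

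The other member probe set that rose in J1 belonged to Uqcrc2, a core protein of complex III. It read 1392 and 1354 in control and 1639 and 1777 in Rif1 shRNA arrays, a log2 fold change of 0.29 ± 0.06 (adjusted p = 0.0214). The brighter Uqcrc2 probe set read 3803 and 3605 in control and 3700 and 4344 in Rif1 shRNA arrays, where the groups overlapped and the log2 fold change was 0.09 (adjusted p = 0.477). The 2 probe sets of Uqcrc2 therefore disagree in their call. The call of the dimmer one was lost in 8 of 19 alternatives: without the intensity trend, with the replicate block, when the J1 arrays were fitted alone, without either J1 control array, without J1 Rif1 shRNA replicate 2 and without either F1 Rif1 shRNA array (adjusted p up to 0.129).

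By complex, the J1 medians were 0.05 for the 43 genes of complex I, 0.05 for the 8 of complex II, 0.09 for the 8 of complex III, -0.02 for the 15 of complex IV and 0.07 for the 17 of complex V. Calls were thus scarce in every complex, with 1 in complex III and 0 elsewhere (10, 2, 1 and 4 genes of complexes I, II, IV and V at an unadjusted p under 0.05). J1 Rif1 shRNA replicate 1 had the highest median of normalized member values of the J1 arrays, 11.89 against 11.73 to 11.75 on the others. Fitted on the J1 arrays alone, Uqcrfs1 was the 1 gene that rose and 0 fell, where 0.612% and 0.530% of all genes did, and the 1 probe set that rose, where 0.478% and 0.402% of all probe sets rose and fell. Without J1 Rif1 shRNA replicate 1 the J1 median of the member genes was 0.004, against -0.003 over all genes. Without J1 Rif1 shRNA replicate 2 the member median was 0.06, against 0.005 over all genes.

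**Figure D1:**
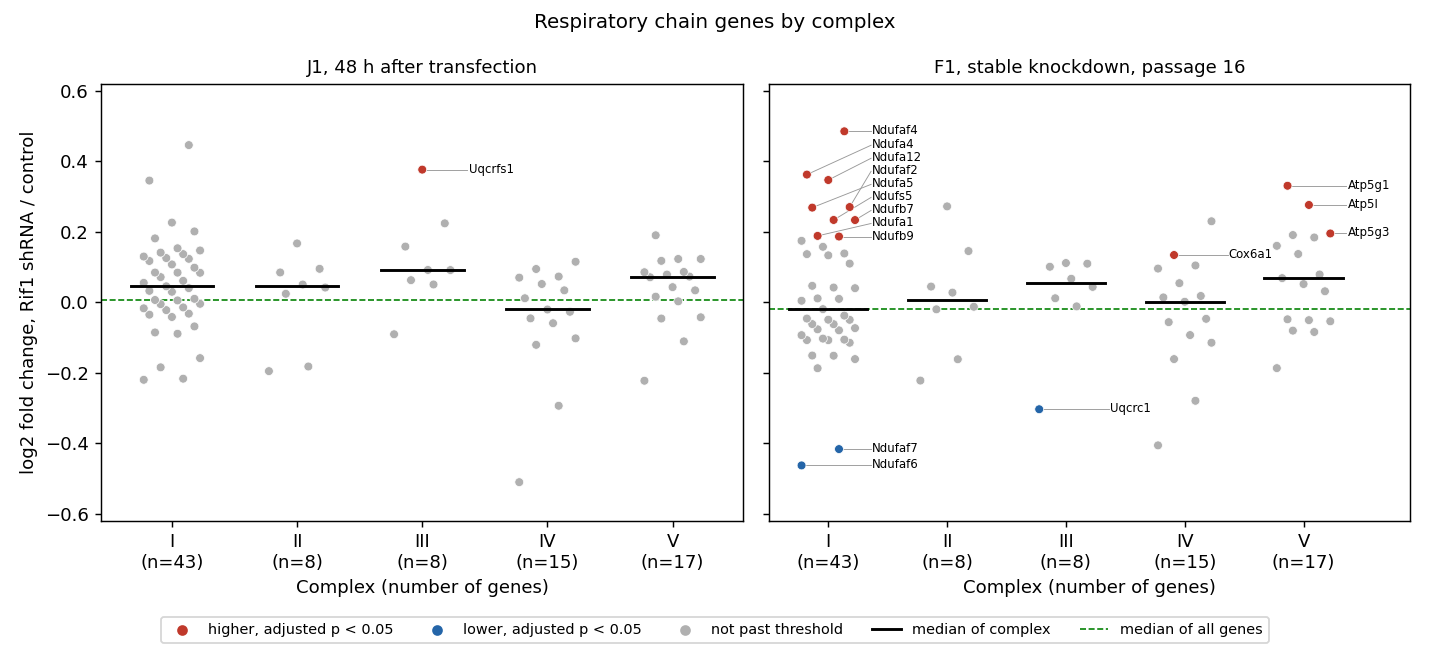
Log2 fold change (Rif1 shRNA over control) of each of the 91 tested genes, by complex, in J1 on the left and F1 on the right. Red points rose and blue points fell at an adjusted p under 0.05, black bars are medians of a complex and the green line is the median of all genes; 1 point is coloured in J1 and 16 in F1.

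In stable F1 knockdown cells at passage 16, 13 of the 91 genes rose and 3 fell. The risers were 7 accessory subunits and 2 assembly factors of complex I, 1 subunit of complex IV and 3 subunits of the membrane part of ATP synthase. The genes that fell were 2 other complex I assembly factors and Uqcrc1 of complex III. Over all 14714 genes tested in F1, 10.6% rose and 8.20% fell, so that the 17.6% of chain genes called in either direction lay near the 18.8% of all genes. By probe set 17 of 173 rose and 5 fell, against 8.28% and 6.81% of all probe sets (16 rose and 8 fell with each setting normalized alone). The changes were small, with none of the 91 estimates beyond 0.5 on the log2 scale, and the median was 0.01 against -0.02 over all genes. The feeder marker sum was 33691 and 34984 on the same Rif1 shRNA arrays against 16574 and 16745 in control, and its part in these calls was not tested.

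The largest rise in F1 was that of Ndufaf4, an assembly factor of complex I. It read 1167 and 1163 in F1 control and 1697 and 1655 in F1 Rif1 shRNA arrays. The groups lay well apart, with a log2 fold change of 0.48 ± 0.07 (adjusted p = 0.000519), a 1.40-fold rise. The J1 arrays read 626 and 678 in control and 730 and 794 in Rif1 shRNA, a log2 fold change of 0.23 that did not pass (adjusted p = 0.0956). The second Ndufaf4 probe set had a log2 fold change of 0.32 in F1 and did not pass (adjusted p = 0.0864).

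Ndufa4, first described as a complex I subunit and since assigned to complex IV, was counted under complex I by its symbol. It read 5827 and 6033 in F1 control and 7496 and 7527 in F1 Rif1 shRNA arrays, a log2 fold change of 0.36 ± 0.05 (adjusted p = 0.000443). In J1 it read 5711 and 5388 in control and 5442 and 5092 in Rif1 shRNA arrays, where the groups overlapped. Ndufa4 and Ndufaf4 passed in F1 under all 18 alternatives tried.

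Ndufa12, an accessory subunit of complex I, rose in F1 at 3 of 3 tested probe sets. The brightest read 2876 and 2936 in control and 3762 and 3519 in Rif1 shRNA arrays, a log2 fold change of 0.35 ± 0.06 (adjusted p = 0.00321). The same probe set read 2833 and 2730 in J1 control and 3062 and 2726 in J1 Rif1 shRNA arrays, so these overlapped. The other 5 accessory subunits of complex I that rose were smaller in size. Ndufa5 rose by 0.27 ± 0.07 (adjusted p = 0.0299, 2 of 2 probe sets) and Ndufs5 by 0.23 ± 0.06 (adjusted p = 0.0323). Ndufb7 rose by 0.23 ± 0.05 (adjusted p = 0.00985, 1 of 2 probe sets), Ndufa1 by 0.19 ± 0.04 (adjusted p = 0.0152) and Ndufb9 by 0.19 ± 0.06 (adjusted p = 0.0478, 2 of 3 probe sets).

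The core of complex I, which carries the NADH site and the chain of iron-sulfur clusters, had 0 of 6 tested genes past the threshold in F1 (1 higher and 1 lower at an unadjusted p under 0.05). Ndufv1, the NADH-binding subunit, read 2521 and 2554 in F1 control and 2580 and 2562 in F1 Rif1 shRNA arrays, a log2 fold change of 0.01 ± 0.05. Ndufs1, the largest core subunit, had log2 fold changes of -0.22 ± 0.07 in J1 (adjusted p = 0.105) and -0.15 ± 0.07 in F1 (adjusted p = 0.161), and it fell in F1 when the F1 arrays were fitted alone (adjusted p = 0.0286). Ndufs7, which passes electrons towards ubiquinone, had 0.07 in J1 and -0.11 in F1.

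The 8 complex I assembly factors split in F1, with 2 higher, 2 lower and 4 not called. Beside Ndufaf4, Ndufaf2 read 1640 and 1494 in control and 1896 and 1961 in Rif1 shRNA arrays, a log2 fold change of 0.27 ± 0.08 (adjusted p = 0.0471). Ndufaf6 read 491 and 480 in control and 349 and 362 in Rif1 shRNA arrays, a fall of 0.46 ± 0.09 (adjusted p = 0.00551). Ndufaf7, a mitochondrial methyltransferase, read 409 and 429 in control and 315 and 316 in Rif1 shRNA arrays and fell by 0.42 ± 0.08 (adjusted p = 0.00656).

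For complex II, which is also an enzyme of the citrate cycle, the 8 genes were 4 subunits and 4 assembly factors. None of the 8 was called in F1 by limma (1 higher and 2 lower at an unadjusted p under 0.05). None was called in J1 by limma either (0 higher and 2 lower at an unadjusted p under 0.05). The medians of the 4 subunits were 0.06 in J1 and -0.09 in F1, and those of the 4 assembly factors 0.04 and 0.09. Sdha, the flavoprotein that oxidises succinate, had log2 fold changes of -0.18 ± 0.06 in J1 and -0.01 ± 0.06 in F1. Sdhb, its iron-sulfur partner, had 0.08 in J1 and -0.16 in F1. The membrane anchors Sdhc and Sdhd had -0.22 ± 0.08 and 0.04 ± 0.07 in F1, and Sdhc fell there when the F1 arrays were fitted alone (adjusted p = 0.0168).

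In complex III the sole call in F1 was Uqcrc1, a core protein of that complex. It read 4172 and 4411 in F1 control and 3463 and 3723 in F1 Rif1 shRNA arrays. The groups did not overlap, and it fell by 0.30 ± 0.06 (adjusted p = 0.00563). Its partner Uqcrc2 read 3585 and 3624 in control and 3820 and 3805 in Rif1 shRNA arrays, a log2 fold change of 0.07 (adjusted p = 0.542).

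In complex IV, Cox6a1 was the only gene of 15 called in F1, at 1 of its 2 probe sets. It read 10850 and 10780 in F1 control and 12057 and 11455 in F1 Rif1 shRNA arrays, a log2 fold change of 0.13 ± 0.04 (adjusted p = 0.0378). Cox4i1, a regulatory subunit often used as a loading marker for mitochondria, read 9324 and 9182 in control and 9456 and 9531 in Rif1 shRNA arrays. Its 95% confidence interval was -0.08 to 0.10 in J1 and -0.09 to 0.09 in F1. Cox5a and Cox5b had 0.01 and -0.06 in F1 at their brightest probe sets, while a dimmer Cox5a probe set fell by 0.20 ± 0.05 (adjusted p = 0.0283). A dimmer probe set of the complex I gene Ndufs4 also fell, by 0.26 ± 0.07 (adjusted p = 0.0388), and its brightest one did not pass.

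In ATP synthase the F1 calls were Atp5g1, Atp5g3 and Atp5l. Atp5g1 and Atp5g3 encode the same mature subunit c, which forms the turning ring, and Atp5l encodes subunit g beside it in the membrane. Atp5g2, a further gene for the same subunit c, went the other way in F1, with -0.19, and was not called (adjusted p = 0.0808). Atp5l read 6230 and 6049 in control and 7446 and 7339 in Rif1 shRNA arrays, a log2 fold change of 0.28 ± 0.05 (adjusted p = 0.00248). Atp5g1 read 5105 and 5182 in control and 6150 and 6236 in Rif1 shRNA arrays, a log2 fold change of 0.33 ± 0.08 (adjusted p = 0.0153). Atp5g3 rose by 0.19 ± 0.04 (adjusted p = 0.00469), from 9773 and 9494 to 11044 and 10945. The catalytic head had 0 of 5 genes called in F1 (1 higher and 0 lower at an unadjusted p under 0.05). Its subunits Atp5a1, Atp5b and Atp5c1 had log2 fold changes of -0.08, -0.05 and -0.05 in F1 and of 0.12, 0.08 and 0.09 in J1.

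The F1 calls rest on few arrays. Leaving out any 1 F1 array lost the calls of Atp5g1, Cox6a1, Ndufa1, Ndufa5, Ndufaf2, Ndufb9 and Ndufs5. Fitted on the F1 arrays alone, which spread less than the J1 arrays, 22 rose and 9 fell, where 16.0% and 14.5% of all genes did. Without the intensity trend in limma's prior, 11 of the 16 F1 calls were lost, Uqcrc1, Atp5l and Atp5g3 among them. Of the single genes, Ndufb9 passed in 7, Cox6a1 in 9, Atp5g1 and Ndufaf2 in 11 and Ndufa1, Ndufa5 and Ndufs5 in 13 of 18 alternatives. By probe set 35 rose and 15 fell on the F1 arrays alone, against 13.0% and 12.7% of all probe sets.

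**Figure D2:**
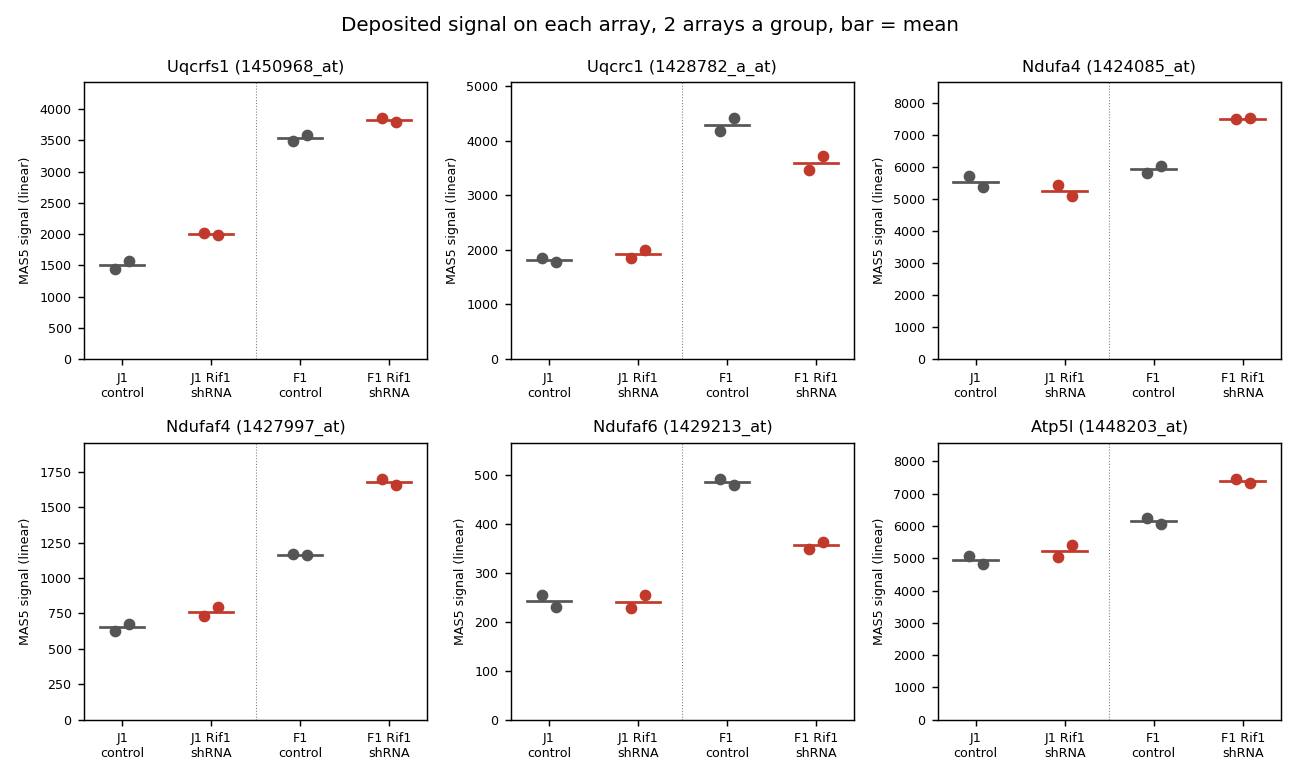
Deposited signal (linear scale from 0) of 6 named genes on each of the 8 arrays, with control in grey and Rif1 shRNA in red and bars at the mean of 2 arrays. All 6 genes separate in F1, for example 1167 and 1163 against 1697 and 1655 for Ndufaf4, and Uqcrfs1 and Ndufaf4 separate in J1 too. Of all tested probe sets 63.2% separate in F1 and 39.5% in J1, and the 6 genes shown are all called ones. Uqcrfs1 passed the test in J1 and the other 5 in F1.

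The difference between the 2 effects (F1 minus J1) was tested directly. Of the 91 genes 3 were higher and 3 lower, against 6.25% and 4.37% of all genes, and by probe set 4 of 173 were higher and 3 lower, against 4.99% and 3.37%. The 3 with a higher effect in F1 were Ndufa4 (0.45 ± 0.07, adjusted p = 0.00226), Atp5md (0.41 ± 0.09, adjusted p = 0.0143) and Atp5g3 (0.24 ± 0.05, adjusted p = 0.0184). The 3 with a lower effect in F1 were Ndufaf6 (-0.47 ± 0.13, adjusted p = 0.0488), Uqcrc1 (-0.39 ± 0.09, adjusted p = 0.0156) and Ndufa6 (-0.35 ± 0.07, adjusted p = 0.0109). These counts moved with the array left out. The share of all probe sets called in such fits is not given here, so the movement is not read as a result about the chain. The Ndufaf6 difference passed in 6 of 17 alternatives, the Ndufa4 difference in 16 of 17.

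Atp5md and Ndufa6 differed between the settings without a call in either. Atp5md, a small membrane subunit of ATP synthase, read 3792 and 3600 in J1 control and 3315 and 2902 in J1 Rif1 shRNA arrays. In F1 it read 4385 and 4367 in control and 4966 and 5197 in Rif1 shRNA arrays, so its arrays separated in opposite directions. Ndufa6, an accessory subunit of complex I, read 2782 and 2785 in J1 control, 3122 and 3273 in J1 Rif1 shRNA, 2973 and 3057 in F1 control and 2715 and 2786 in F1 Rif1 shRNA arrays. It too separated both times, higher in J1 and lower in F1. For Uqcrfs1, called in J1 alone, the difference was -0.27 ± 0.08 and did not pass (adjusted p = 0.0528).

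Across the 91 genes the J1 and F1 effects had a Pearson r of 0.19 and a Spearman rho of 0.04, against 0.14 and 0.08 over all genes. These values describe genes measured on arrays normalized together and are no test.

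**Figure D3:**
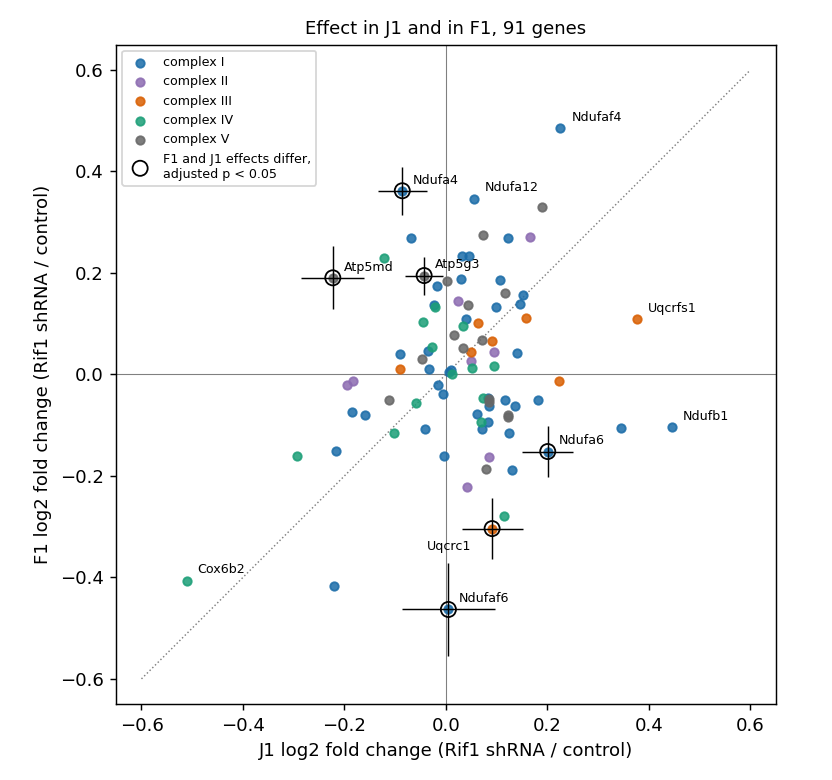
Log2 fold change in J1 (x axis) against F1 (y axis) for the 91 genes, coloured by complex, with equal effects on the dotted line. The 6 circled genes, with standard error bars, are those whose F1 and J1 effects differed at an adjusted p under 0.05; they lie above the line for Ndufa4, Atp5md and Atp5g3 and below it for Ndufa6, Uqcrc1 and Ndufaf6.

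Isoforms known from particular tissues were mostly dim, with Cox6b2 and Cox7a1 in F1 among the exceptions. Cox4i2, the lung and hypoxia form of subunit 4, read 54.6 to 70.1 over all arrays, and Cox6a2, the heart and muscle form, 84.0 to 138. Cox8b, the other muscle form, stayed at 30.5 to 46.8 and Cox7b2 at 13.8 to 46.8, and neither was tested. Cox7b2 read 18.2 and 13.8 in F1 control and 46.8 and 45.5 in F1 Rif1 shRNA arrays, all below the arrays' medians.

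Cox6b2, the testis form of subunit 6b, read 190 and 178 in J1 control and 147 and 127 in J1 Rif1 shRNA arrays, and 551 and 639 in F1 control and 540 and 380 in F1 Rif1 shRNA arrays. The groups did not overlap in either setting, as at 39.5% of all probe sets in J1 and 63.2% in F1, and the log2 fold changes were -0.51 ± 0.15 in J1 (adjusted p = 0.103) and -0.41 ± 0.15 in F1 (adjusted p = 0.106). It fell without J1 Rif1 shRNA replicate 1 in J1 (adjusted p = 0.0458) and without F1 Rif1 shRNA replicate 1 in F1 (adjusted p = 0.037). Cox8c, another testis form, had -0.28 ± 0.10 in F1 (adjusted p = 0.0877), and it fell with each setting normalized alone (adjusted p = 0.0274) and with the F1 arrays fitted alone (adjusted p = 0.0261). Cox7a1, the heart and muscle form, read 242 and 260 in F1 control and 330 and 309 in F1 Rif1 shRNA arrays, a log2 fold change of 0.23 ± 0.10 (adjusted p = 0.161) that passed on the deposited scale (adjusted p = 0.0277) and with the F1 arrays alone (adjusted p = 0.0397). Ndufa4l2, a hypoxia-induced relative of Ndufa4, read 114 and 85.8 in J1 control and 101 and 159 in J1 Rif1 shRNA arrays, which overlapped. It rose in J1 without J1 Rif1 shRNA replicate 1, the array at 101 (0.66, adjusted p = 0.0351).

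The nuclear factors that drive these genes are known to include NRF1, the ETS factor GABP and YY1, which bind near the start sites. RefSeq promoter windows of 300 bases (250 before the start and 50 after, GRCm38.p6) matched 78 of the member genes with 83 windows. The letters GCGCATGCG (CGCATGCGC on the other strand), the centre of the NRF1 site, stood in 9 member windows (10.8%) against 1.75% of all 32851 windows. The ETS letters CCGGAAG, on either strand (CTTCCGG), stood in 22 (26.5%) against 8.86%. The YY1 letters AAGATGGCG (CGCCATCTT on the other strand) stood in 7 (8.43%) against 1.40%, and in 6 of the 7 they lay just after the start. Both strands were searched, the NRF1 letters overlap their own reverse, and a match describes letters only, not binding.

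The 9 genes with the NRF1 letters were Atp5g2, Atp5k, Atp5l, Cox6a1, Ndufa8, Ndufaf4, Ndufaf5, Uqcr11 and Uqcrc1. In F1, 3 of them rose (Ndufaf4, Atp5l and Cox6a1) and 1 fell (Uqcrc1), with a median of 0.11. Of the 91 chain genes 14.3% rose and 3.30% fell in F1, and of all genes 10.6% rose and 8.20% fell. Whether the letters go with the change was not tested. The upstream windows of Ndufaf4 and Cox6a1 and a short stretch of Uqcrc1 are shown because a gene with the largest rise, one with a small rise and the one subunit that fell carry the same letters. All run 5′ to 3′ on the gene's strand, with the NRF1 and ETS letters in capitals. The windows are chr4:24897833-24898082 (plus strand) for Ndufaf4, chr5:115348959-115349208 (minus strand) for Cox6a1 and chr9:108936670-108936695 (plus strand), just after the start, for Uqcrc1.
Ndufaf4: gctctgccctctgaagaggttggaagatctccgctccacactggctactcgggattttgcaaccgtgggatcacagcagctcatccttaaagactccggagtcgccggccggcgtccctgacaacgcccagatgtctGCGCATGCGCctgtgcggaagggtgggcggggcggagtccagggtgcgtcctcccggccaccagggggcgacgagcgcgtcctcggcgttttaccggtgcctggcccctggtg
Cox6a1: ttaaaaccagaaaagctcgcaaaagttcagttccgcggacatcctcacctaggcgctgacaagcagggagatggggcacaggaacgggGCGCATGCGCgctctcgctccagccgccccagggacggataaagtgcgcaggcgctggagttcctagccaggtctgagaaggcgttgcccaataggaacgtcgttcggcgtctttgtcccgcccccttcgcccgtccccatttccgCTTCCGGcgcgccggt
Uqcrc1: tccgctctGCGCATGCGCagcgcggc
The same letters thus stood before a gene that rose by 0.48, before one that rose by 0.13 and within one that fell by 0.30. Of the 22 genes with the ETS letters 3 rose in F1 (Atp5l, Cox6a1 and Ndufb7) and 0 fell, with a median of 0.09. At an unadjusted p under 0.05 by limma, 7 were higher and 1 lower. The F1 shares of the chain and of all genes are those given above. Of the 7 with the YY1 letters none was called in F1 by limma (0 higher and 1 lower at an unadjusted p under 0.05).

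Among 14 tested regulators of the chain, Nrf1 read 588 and 659 in F1 control and 420 and 463 in F1 Rif1 shRNA arrays and fell by 0.51 ± 0.09 (adjusted p = 0.0019). In J1 it read 288 and 275 in control and 282 and 292 in Rif1 shRNA arrays, a log2 fold change of 0.03, and the difference between settings passed (-0.55, adjusted p = 0.0173). Gabpa, the DNA-binding part of GABP, fell in J1 by 0.40 ± 0.08 (adjusted p = 0.0255), from 759 and 883 in control to 599.6 and 617 in Rif1 shRNA arrays. Tfb2m, a factor for transcription of mitochondrial DNA, rose in F1 by 0.41 ± 0.08 (adjusted p = 0.0042). The other 11 regulators were not called in either setting, and the medians were 0.03 in J1 and -0.06 in F1. Of the 14, 0 rose and 1 fell in J1 (2 higher and 4 lower at an unadjusted p under 0.05 by limma). In F1 1 rose and 1 fell (1 higher and 4 lower at an unadjusted p under 0.05). Over all genes 1.86% rose and 2.17% fell in J1, and 10.6% rose and 8.20% fell in F1.

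Other parts of mitochondrial metabolism were set beside the chain. The 12 tested citrate cycle genes had 0 called in J1 (1 higher and 2 lower at an unadjusted p under 0.05 by limma) and 5 higher and 3 lower in F1, where 10.6% of all genes rose and 8.20% fell. In F1 Fh1 (fumarase) rose by 0.28, Suclg1 by 0.29, Dld by 0.29, Ogdh by 0.26 and Mdh2 by 0.20, and Idh3a fell by 0.39, Sucla2 by 0.20 (adjusted p = 0.0221) and Idh3g by 0.19 (adjusted p = 0.036). The list's F1 median was 0.12, against 0.01 for the chain and -0.02 for all genes. Of 10 tested genes of pyruvate entry, 1 rose and 0 fell in J1 (1 higher and 1 lower at an unadjusted p under 0.05). In F1 2 rose and 1 fell. The list's medians were 0.05 in J1 and -0.07 in F1. In F1 Pdk4 rose by 0.79 (adjusted p = 0.0041) and Pdk1 fell by 0.50 (adjusted p = 0.0209). Mpc1, a subunit of the pyruvate carrier, rose in both settings, by 0.61 ± 0.09 in J1 (adjusted p = 0.0054) and 0.41 ± 0.09 in F1 (adjusted p = 0.0084). Cyct, the testis form of cytochrome c, also rose in both, from 239 and 215 to 356 and 301 in J1 and from 419 and 430 to 825 and 834 in F1, whereas the somatic form Cycs was not called.

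Of 32 tested assembly factors outside the member rule, 1 rose and 1 fell in J1 and 0 rose and 2 fell in F1 (4 higher and 5 lower at an unadjusted p under 0.05). In J1 Tmem70, which assembles ATP synthase, rose by 0.34 and Ttc19, a complex III factor, fell by 0.65. In F1 the complex I factors Ecsit and Nubpl fell by 0.58 and 0.40. With Ndufaf6 and Ndufaf7, they make 4 complex I assembly genes that fell in F1 beside the 2 that rose. The other complex I assembly genes tested were not called there, Acad9, Foxred1, Timmdc1 and Tmem126b among them. Over all genes 10.6% rose and 8.20% fell in F1, and 1.86% rose and 2.17% fell in J1. The 76 mitochondrial ribosome genes had 1 higher and 1 lower in J1 and 7 higher and 4 lower in F1, and the 23 import genes 1 higher and 0 lower in J1 and 1 higher and 1 lower in F1. Genes encoded by mitochondrial DNA were not analysed here.

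The glycolysis and hypoxia list mixes glycolytic genes with hypoxia genes outside glycolysis. It had 7 of 22 tested genes higher and 0 lower in J1 (16 higher and 0 lower at an unadjusted p under 0.05), where 1.86% of all genes rose. The 7 were Aldoc, Pfkp, Pgk1 and Tpi1 of glycolysis and the hypoxia genes Ankrd37, Higd1a and Ndrg1. The list's J1 median was 0.36, beside 0.05 for the chain. J1 Rif1 shRNA replicate 2 read higher than replicate 1 for all 22 genes, for example 1223 against 520 for Bnip3, from 343 and 426 in control. Without J1 Rif1 shRNA replicate 2 the list's J1 median was 0.19, against 0.005 over all genes. Without J1 Rif1 shRNA replicate 1 it was 0.48, against -0.003 over all genes. Without J1 control replicate 1 or 2 the list's medians were 0.34 and 0.37, against 0.01 and -0.003 over all genes. In F1 2 of the 22 genes rose and 3 fell, where 10.6% of all genes rose and 8.20% fell, and the list's median was -0.11. No test was made between the lists.

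**Figure D4:**
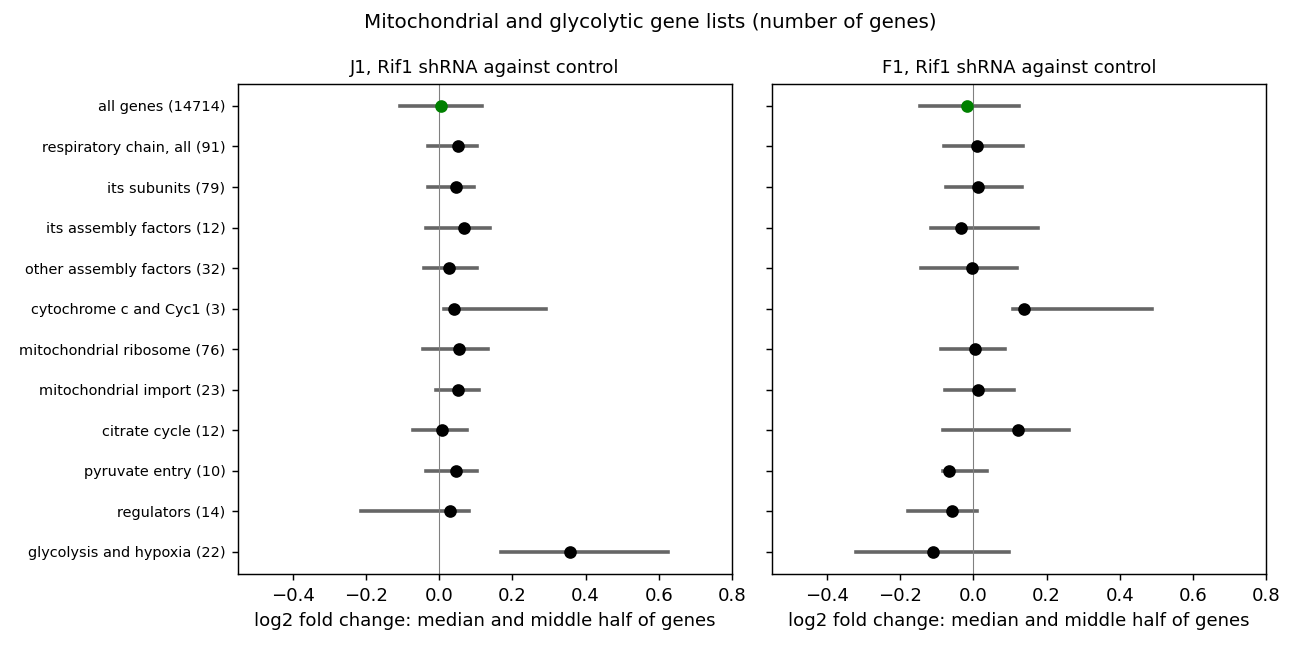
Median (point) and middle 50% of genes (bar) of the log2 fold change in J1 and F1 for all genes, the respiratory chain and the other lists, with the number of genes in brackets. The chain lies at 0.05 in J1 and 0.01 in F1, and the glycolysis and hypoxia list at 0.36 and -0.11.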

How the data were processed

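Per the labels, RNA was taken with Trizol and labelled with biotin. The authors deposited linear intensity signals, 1 per probe set and array, from MAS5 per the submitters' processing notes, with no version stated there. The arrays were grouped by the transfection and cell line labels. Values were taken as log2(signal + 17.8), the offset being the 10th percentile of all values, and quantile normalized over the 8 arrays, whose 2% trimmed means were 193 to 197 in J1 and 301 to 309 in F1. The 64 control probe sets were then dropped, and probe sets above the 40th percentile on at least 2 arrays kept. The 4 group means were estimated together in limma 3.58.1 (R 4.3.3; eBayes with intensity trend, two-sided, 4 residual and 6.94 prior degrees of freedom), after tests on simulated data. All 94 symbols matched RefSeq.

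The members and lists were chosen with earlier results of these data known. Named genes were, at the brightest probe set, up to 8 called genes in each direction per comparison, fixed core subunits and restricted isoforms, members of counts up to 5, and genes of other lists where a result turned on them. Ndufs4, Ndufaf5, Ndufa8, Uqcr11, Atp5g2, Atp5k, and Cox7c, were named after their values were seen. Alternatives changed offset, filter, normalization, spread, arrays, block and probe sets.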

Additional observations from a re-analysis of the deposited data

Results flagged for a closer look

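For 6 respiratory chain genes the effect of Rif1 shRNA differed between F1 and J1 by limma's test of the difference, adjusted over all tested probe sets. The log2 difference (F1 minus J1) was 0.45 for Ndufa4, 0.41 for Atp5md and 0.24 for Atp5g3. It was -0.47 for Ndufaf6, -0.39 for Uqcrc1 and -0.35 for Ndufa6. Without the intensity trend in limma's prior none of the 6 passed, with adjusted p from 0.0577 to 0.239.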

How the results depend on the processing

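Residual spread was wider in J1 than in F1 (median SD over members 0.0847 against 0.0394), so 1 shared spread is lenient for J1 and strict for F1. The low signal of the isoforms and the 2 arrays a group limit what could be detected. Without the intensity trend, 0 member probe sets rose in J1, 5 rose and 3 fell in F1, 0 were higher and 0 lower in the difference, and at gene level 0 rose in J1 and 3 in F1. With the arrays of a setting fitted alone, 1 probe set rose in J1, and in F1 35 rose and 15 fell (22 and 9 genes). Quantile normalization within each setting gave 8 falling probe sets in F1, and leaving out the _x_at and _s_at probe sets gave 3. A filter at the 60th percentile gave 5 probe sets lower in the difference and 2 genes higher in J1. The mean of a gene's probe sets gave 2 genes higher in J1 and 6 lower in F1. Same-numbered arrays deviated together with r = -0.34 in J1 and 0.19 in F1, so the numbers were not taken to pair the samples. With the replicate block, 1 probe set rose in J1, 20 rose and 5 fell in F1, and Cox6a1 was lost in F1 (adjusted p = 0.0540). The crossed replicate block in J1, added after the data were seen, gave 2 probe sets higher and 0 lower. Leaving out each array in turn, where the lone array of a group is assumed to vary like the other groups, gave these ranges for probe sets: 1 to 10 higher and 0 to 6 lower in J1, 5 to 28 higher and 1 to 13 lower in F1, and 1 to 12 higher and 0 to 21 lower in the difference. For genes the ranges were 1 to 4 higher and 0 to 6 lower in J1, and 3 to 18 higher and 1 to 8 lower in F1. Without J1 Rif1 shRNA replicate 1 or 2, 27 and 28 probe sets rose and 13 fell each time in F1. Apart from the effects of fewer arrays or probe sets, the cause was not tested. The share of all genes or probe sets called in the fits without 1 array is not given beside these counts. Over the 1197 combinations of a named gene and comparison with an alternative, 1078 kept the side of the threshold, 103 lost the call and 16 gained one. The sign changed in 12 of them, for 8 values near 0 such as Cox4i1 in both settings, and in 0 where the gene was called under either fit. The glycolysis list's values without each J1 array were added after the data were seen.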

Other observations

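Some member probe sets stood at very different levels on J1 and F1 arrays, whatever the shRNA. These were chosen after their values were seen, and the level difference between the settings was not tested. For Sdhd, a membrane anchor of complex II, the brightest probe set read 804 to 953 on the J1 arrays and 3486 to 3679 on the F1 arrays, whereas the other read 1171 to 1402 on the J1 arrays and 29.4 to 52.0 on the F1 arrays. The 2 Sdhd probe sets thus ordered the settings in opposite ways. For Ndufb9 the dimmest tested probe set read 74.0 to 83.2 in J1 and 12.4 to 15.7 in F1, while the brightest read 3286 to 3989 and 3975 to 4576. For Cox7c, the brightest probe set read 58.6 to 85.3 in J1 and 409.7 to 466.6 in F1.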
